A study of Mus musculus with 3 samples.

Results

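Tnfsf11 and Dusp5 are 2 mouse genes whose promoters carried more H3K4me3 in STAT3-deficient than in wild-type T cells, and they were chosen by that difference in H3K4me3 reads, which is given here as a description. They were found by position on the mm9 build. Tnfsf11 was taken as chr14:78660000-78800000, minus strand, with its start site near 78707000, and Dusp5 as chr19:53585000-53640000, plus strand, with its start site near 53603600. The start sites are approximate, since no mm9 annotation was used here, and all distances below are counted from them, positive in the direction of transcription. Each gene had 1 promoter region among the 10971 H3K4me3 regions of the series that held at least 50 reads in both H3K4me3 libraries together, called marked regions here.

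The cells were naive CD4+ CD44- CD62L+ T cells, sorted and grown for 72 h on plate-bound anti-CD3 and anti-CD28 with TGF-b at 2.5 ng/ml and IL-6 at 10 ng/ml while antibodies blocked IL-2, IL-4 and IFN-g, conditions that push naive cells to the IL-17-producing Th17 state. A second exposure to IL-6, for 1 h, preceded the preparation of chromatin. The STAT3-deficient cells were Stat3fl/fl FoxP3-GFP with CD4-Cre, so that the floxed gene is deleted in T cells by a recombinase driven from Cd4 regulatory sequence, and the wild-type cells were Stat3fl/fl FoxP3-GFP without Cre. Chromatin immunoprecipitation and sequencing (ChIP-seq) gave 1 H3K4me3 library of STAT3-deficient cells with 12075963 reads, 1 H3K4me3 library of wild-type cells with 12281399 reads, and 1 library of wild-type cells with 10127075 reads, made with an antibody against STAT3 phosphorylated on serine (Phospho-STAT3(Ser727)). With 1 library per group there was no replicate check and no test between genotypes, and every interval given below is an exact 95% interval that covers counting error only.

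H3K4me3 marks the start of genes that are transcribed or ready to be. STAT3 is the transcription factor that IL-6 activates and that the Th17 state needs. Tnfsf11 encodes RANKL, a ligand of the TNF family that activated T cells make. RANKL binds the receptor RANK (Tnfrsf11a), is held off by the decoy receptor osteoprotegerin (Tnfrsf11b), and drives the formation of osteoclasts, the cells that resorb bone. Dusp5 encodes a phosphatase of the nucleus that dephosphorylates ERK kinases and holds them there, and its gene is itself switched on by ERK signalling.

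The deletion could not be checked at the gene itself, since Stat3 was not placed on mm9 here. A scan for intervals of at least 2 kb that held 0 STAT3-deficient H3K4me3 reads gave 98141 of them. The one ranked first by the smaller of the wild-type counts lay on chromosome 11, the chromosome of Stat3, spanned 3657 bp and held 28 wild-type H3K4me3 and 73 wild-type phospho-STAT3 reads. The next, on chromosomes 18 and 6, each held 24 wild-type H3K4me3 and 23 phospho-STAT3 reads, so the smaller count was 28 against 23. As the intervals were picked for their 0, this is a description and no test of the label. Neither Th17 nor other cell type markers were placed on mm9, so the labelled cell type was not checked.

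At Tnfsf11 the mark stood high in the STAT3-deficient library, and in the wild-type library the reads were few but above their surroundings. The promoter region, chr14:78704200-78707599, reached from -599 to 2800 bp. It held 308 STAT3-deficient reads (interval 275 to 344), against 47 wild-type reads (34.5 to 62.5). In the same stretch the reads farther than 10 kb from the start site predict 22.0 STAT3-deficient and 21.0 wild-type reads. The region was thus 14.0-fold over its surroundings (12.5 to 15.6) in STAT3-deficient cells, and 2.24-fold (1.65 to 2.98) in wild-type cells. The phospho-STAT3 library of wild-type cells stood 3.65-fold over its surroundings in this region (2.81 to 4.65). No input library was analysed here, so whether the low wild-type excess is H3K4me3 was not tested. Setting the median ratio of all marked regions to 0 on the log2 scale, the region was 5.34-fold higher in STAT3-deficient cells (3.92 to 7.42), a log2 ratio of 2.42. By library totals it was 6.66-fold higher (4.89 to 9.26).

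The 300 bases around the Tnfsf11 start are shown because the highest H3K4me3 window of both genotypes lies near the approximate start on mm9. These bases run from 250 before to 50 after the start in RefSeq on GRCm38.p6, in the direction of the gene. They were not aligned to mm9, so whether that window, or a phospho-STAT3 site described further on, falls within them was not determined. Capitals mark a TATAAA on the reverse strand, 32 to 27 bases before the start.
Tnfsf11: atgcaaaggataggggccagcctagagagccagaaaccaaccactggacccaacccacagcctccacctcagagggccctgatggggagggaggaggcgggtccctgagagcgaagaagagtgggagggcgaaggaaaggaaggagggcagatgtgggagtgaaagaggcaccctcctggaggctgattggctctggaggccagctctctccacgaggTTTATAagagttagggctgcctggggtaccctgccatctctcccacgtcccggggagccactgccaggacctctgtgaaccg
The stretch holds 7 CpG, the median of 32851 RefSeq promoters of the same length. Its observed over expected ratio of CpG was 0.25, at percentile 35.7 and against a median of 0.38, and its GC content was 61.7%, against a median of 52.7%.

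At Dusp5 the difference was of like size, but by the approximate start site the marked stretch lay wholly inside the gene. The region, chr19:53604200-53607399, reached from 600 to 3799 bp. It held 314 STAT3-deficient reads (280 to 351), against 51 wild-type reads (38.0 to 67.1), where the surroundings predict 27.3 STAT3-deficient and 27.7 wild-type reads. This was 11.5-fold over the surroundings (10.3 to 12.9) in STAT3-deficient cells, and 1.84-fold (1.37 to 2.42) in wild-type cells. The phospho-STAT3 library stood 2.63-fold over its surroundings there (2.03 to 3.36), so the same limit holds for the wild-type excess. The scaled difference was 5.01-fold (3.72 to 6.88), a log2 ratio of 2.33, and 6.26-fold (4.65 to 8.59) by library totals.

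The Dusp5 start differs in base composition from that of Tnfsf11. The sequence below covers the same 300 bases around the start, and its capitals mark a pair of adjoining CArG boxes, the motif of serum response factor, 82 to 73 and 72 to 63 bases before the start.
Dusp5: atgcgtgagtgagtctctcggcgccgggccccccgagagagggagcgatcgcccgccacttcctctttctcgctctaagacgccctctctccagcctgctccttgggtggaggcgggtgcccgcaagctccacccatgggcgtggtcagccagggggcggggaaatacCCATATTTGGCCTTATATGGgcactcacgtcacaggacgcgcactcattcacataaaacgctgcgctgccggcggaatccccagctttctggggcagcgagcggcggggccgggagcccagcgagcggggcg
This stretch holds 28 CpG, an observed over expected ratio of 0.84, at percentile 82.4 of the promoters, with 66.7% GC. A CArG box stood in 1.63% of the 32851 promoters, and TATAAA, on either strand, in 13.6%. Neither sequence holds TTCNNNGAA, the core of the STAT motif, which reads the same on both strands and stood in 8.30% of promoters, nor its stricter form TTCCNGGAA (1.15%), which is contained in it. TATAAA and the CArG box were chosen after the promoter sequences had been read.

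**Figure D1:**
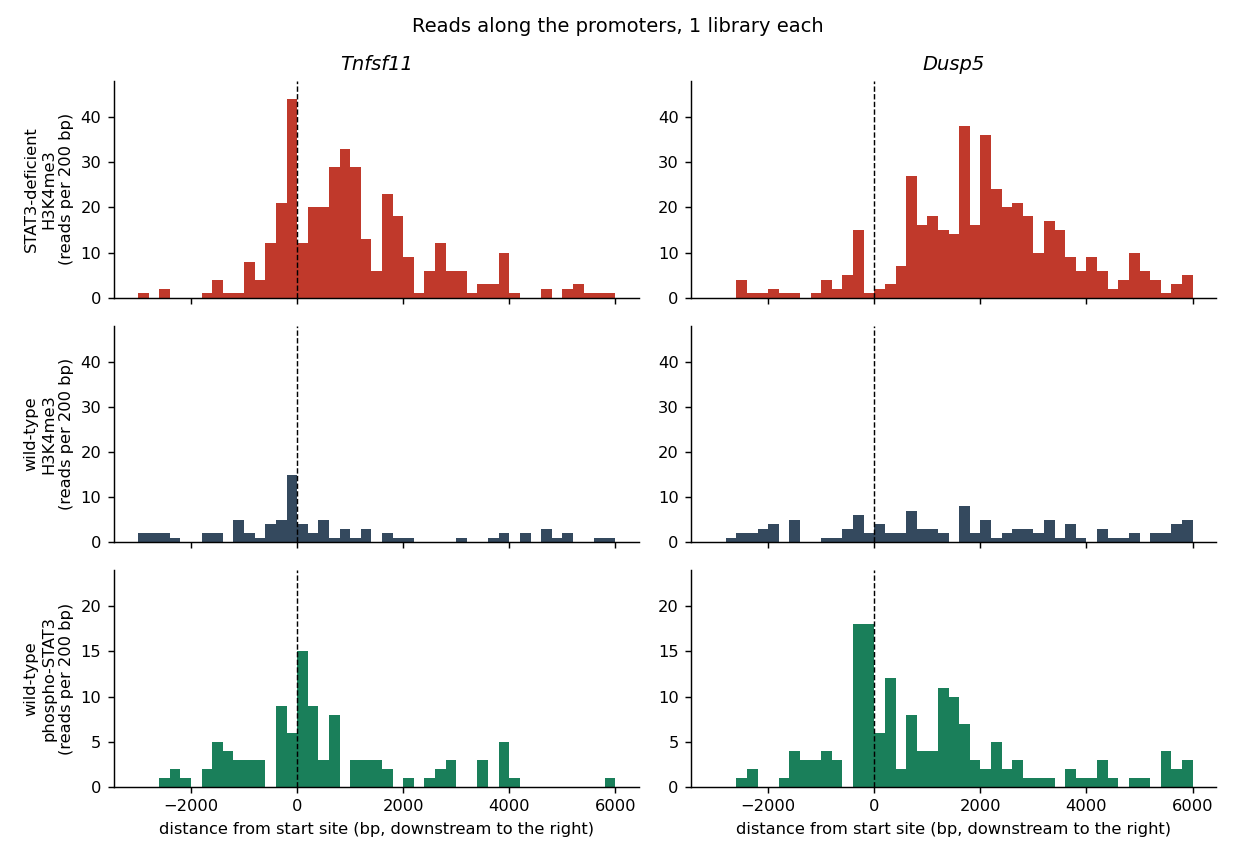
Reads per 200 bp by distance from the start site (dashed line) for Tnfsf11 and Dusp5, with the STAT3-deficient H3K4me3, wild-type H3K4me3 and wild-type phospho-STAT3 libraries from top to bottom, 1 library each and unscaled. STAT3-deficient H3K4me3 reached 44 reads per window at Tnfsf11 and 38 at Dusp5, against 15 and 8 in wild-type cells.

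Both ratios were among the highest of the series, which is how the genes were chosen. Of the 10971 marked regions, 111 (1.01%) were at least 2-fold higher in STAT3-deficient cells with an interval above no change, and both genes were among them. The same rule was passed by 127 lower regions (1.16%) and by 238 (2.17%) in either direction. By library totals the shares were 319 higher (2.91%), 54 lower (0.492%) and 373 (3.4%) in either direction. Ordered by log2 ratio, Tnfsf11 was at rank 4 and Dusp5 at rank 7 of all marked regions. The regions just inside and just outside the rule had log2 ratios of 1.00 and 0.99, far below both genes. In reads per kb, the STAT3-deficient level was above 87.6% of marked regions at Tnfsf11 and 92.0% at Dusp5, while the wild-type level was above 0.228% and 0.419% of them. These percentiles follow from the choice of the genes and from calling regions on both libraries together, and support nothing further: called on the wild-type library alone, neither promoter gave a region. The size of the difference depends on the stretch counted: with background subtracted the log2 ratio was 3.12 at Tnfsf11 and 3.28 at Dusp5, and over 5 kb on either side of the start site it was 1.77 and 1.75.

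The 3 regions most like them, by distance in log2 ratio and in log2 of the pooled reads, were the same for both genes, whose own values on these measures were close. The region chr4:63519600-63522599 was nearest, with 281 STAT3-deficient and 62 wild-type reads, 3.69-fold higher after scaling. The others, chr1:137715600-137717799 and chr5:113565600-113568399, held 197 and 204 STAT3-deficient reads, against 31 and 52 wild-type reads. None of the 3 overlapped a phospho-STAT3 site, while 24.3% of the 111 higher regions and 52.5% of all marked regions did. Of the 3, only chr1:137715600-137717799 had a site within 10 kb, against 61.3% of the higher regions and 74.6% of marked regions. No gene was placed on them. The likeness rests on 2 H3K4me3 libraries and says nothing else about the regions.

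**Figure D2:**
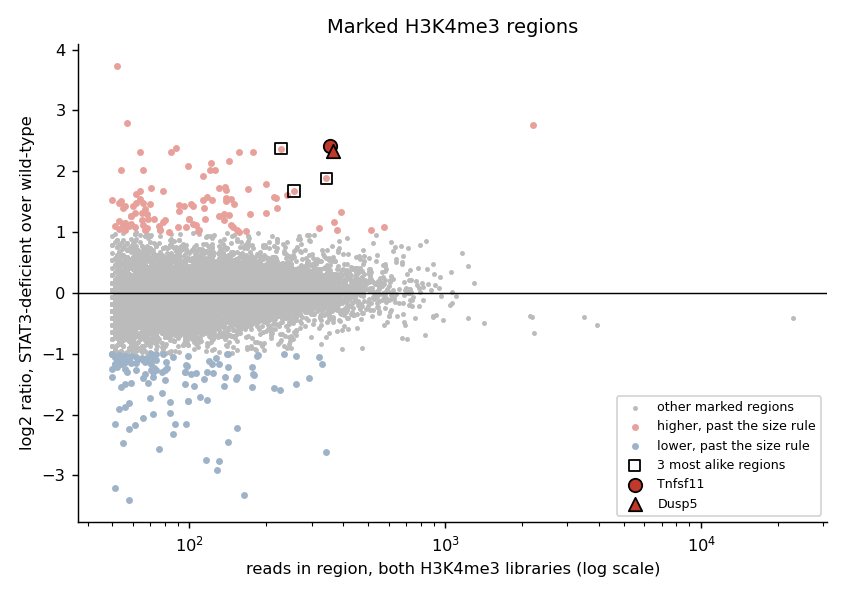
Log2 ratio of H3K4me3 reads, STAT3-deficient over wild-type and scaled to a median of 0, against the reads of both libraries on a log axis, with 1 point for each of the 10971 marked regions. Tnfsf11 (2.42) and Dusp5 (2.33) lie side by side, with the 3 most alike regions as squares.

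The 2 promoters differed from each other in where the mark sat. At Tnfsf11 the highest 200 bp window lay at -100 bp in both libraries, with 44 STAT3-deficient and 15 wild-type reads. A second rise followed downstream in the STAT3-deficient library, with 33 reads between 800 and 1000 bp, where the wild-type library held 3. Of the region's reads, 35.7% (30.4 to 41.3) lay within 500 bp of the start site in STAT3-deficient cells, against 63.8% (48.5 to 77.3) in wild-type cells. From 1000 bp on, it was 38.0% (32.5 to 43.7), against 17.02% (7.65 to 30.8). The few wild-type reads sat mostly at the start site, and the STAT3-deficient reads also filled the stretch inside the gene. The region was set mostly by the STAT3-deficient reads by which the gene was chosen, so these shares are a description and no test.

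The ratio per kb followed the same course at Tnfsf11. In the last kb before the start site there were 89 STAT3-deficient and 27 wild-type reads, 2.68-fold higher after scaling (1.73 to 4.30). The first kb of the gene held 114 and 15 reads, 6.19-fold higher (3.60 to 11.4), and the next kb 89 and 7, 10.4-fold higher (4.82 to 26.5). From 2000 to 3000 bp there were 34 STAT3-deficient reads and 1 wild-type read, and from 3000 to 4000 bp 23 and 4, 4.68-fold higher (1.60 to 18.6). Away from the promoter the wild-type library held 6.17 reads per kb, so its 7, 1 and 4 reads past 1000 bp were near or below background. The size of the ratio in those bins thus rests on wild-type counts at the floor. These are the reads by which the gene was chosen, so the course of the ratio is a description and no test. Beyond these bins the counts were low in both genotypes, with 3 STAT3-deficient and 6 wild-type reads from 4000 to 5000 bp and 7 and 9 from -2000 to -1000 bp.

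At Dusp5 the mark was low at the approximate start site and high within the gene. The window from -400 to -200 bp held 15 STAT3-deficient and 6 wild-type reads, and the 3 windows from -200 to 400 bp held at most 3 STAT3-deficient and 4 wild-type reads each. The highest windows were centred at 1650 bp in STAT3-deficient cells, with 40 reads, and at 1650 to 1700 bp in wild-type cells, with 8. Per kb, the last before the start held 27 and 13 reads, 1.69-fold (0.843 to 3.57), an interval that includes no difference. The first kb of the gene held 55 and 18 reads, 2.49-fold higher (1.44 to 4.50), the second 101 and 15, 5.48-fold (3.17 to 10.2), and the third 119 and 14, 6.92-fold (3.97 to 13.0). The mark still stood 3.61-fold higher (1.56 to 9.70) from 4000 to 5000 bp, with 31 and 7 reads. The wild-type background of this window was 8.64 reads per kb, so the 7 wild-type reads were at the floor. Of the region's reads, 86.3% (82.0 to 89.9) in STAT3-deficient cells and 80.4% (66.9 to 90.2) in wild-type cells lay beyond 1000 bp, so the spread did not differ detectably at this depth.

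**Figure D3:**
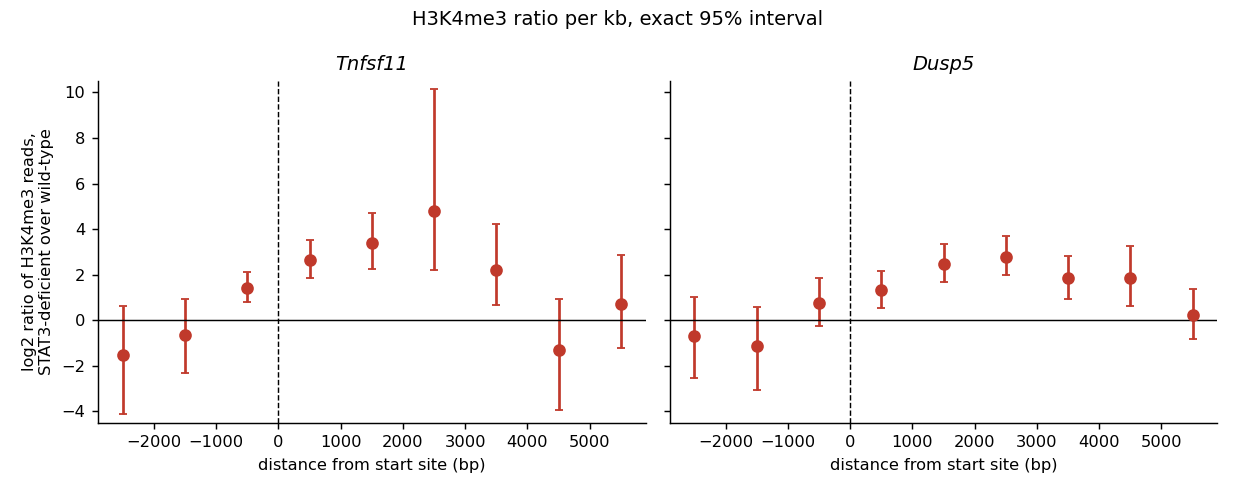
Log2 ratio of H3K4me3 reads per kb, STAT3-deficient over wild-type after scaling, by distance from the start site, with exact 95% intervals that cover counting error only. The ratio was above 0 from the last kb before the start to 4000 bp at Tnfsf11 and from the start to 5000 bp at Dusp5, with its interval clear of 0 in these bins.

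The extent of both regions was set mostly by the STAT3-deficient reads by which the genes were chosen, so it is a description only. They spanned 3400 bp at Tnfsf11 and 3200 bp at Dusp5, wider than 96.5% and 95.8% of marked regions, whose median width was 1200 bp. At Tnfsf11, 13 of 17 windows of 200 bp reached 12 STAT3-deficient reads, against 1 of 17 for wild-type reads. At Dusp5 it was 14 of 16 for STAT3-deficient and 0 of 16 for wild-type reads.

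Away from the promoters the read numbers of both genotypes were close. Over 120 kb of the Tnfsf11 window the counts were 777 STAT3-deficient and 740 wild-type reads, by library totals a log2 ratio of 0.09 (-0.05 to 0.24). Over 32.4 kb of the Dusp5 window they were 276 and 280, giving 0.0036 (-0.24 to 0.25). With the scaling by marked regions these ratios were -0.23 (-0.37 to -0.08) and -0.32 (-0.56 to -0.07), since that scaling lowers every ratio by 0.32. The 93000 bp upstream of Tnfsf11 held no other H3K4me3 region. The Dusp5 window held 2 short regions under 50 reads: chr19:53594600-53594999, 19 STAT3-deficient and 16 wild-type reads, and chr19:53622000-53622599, 20 and 13 reads. Their intervals, -1.09 to 1.01 and -0.75 to 1.45 on the log2 scale, included no difference. Over all 3 libraries, 0 positions in either window carried another base than the reference in 30% or more of at least 3 reads. With 1 Mb added on both sides, 1 position did at each gene. The 3 libraries together held 2860 reads over the 140 kb of Tnfsf11 and 1917 over the 55 kb of Dusp5. How many positions were covered by 3 reads was not counted. At so low a depth the 0 cannot show that the windows are free of variants.

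**Figure D4:**
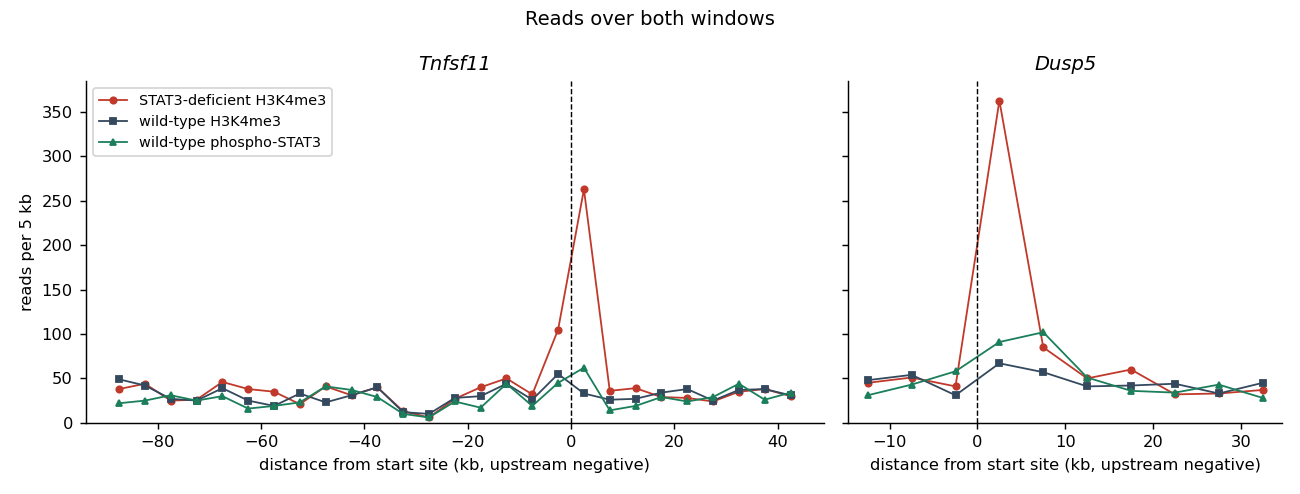
Reads per 5 kb over both windows, by distance from the start site, for all 3 libraries, unscaled. STAT3-deficient H3K4me3 reached 263 reads in the first 5 kb of Tnfsf11 and 363 in that of Dusp5, against 33 and 67 in wild-type cells. The neighbouring bins also differed, with 105 STAT3-deficient and 55 wild-type reads in the last 5 kb before Tnfsf11, and 85 and 57 from 5000 to 10000 bp at Dusp5, where phospho-STAT3 held 102.

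The phospho-STAT3 library of wild-type cells gave a called site at both promoters, and the one at Tnfsf11 was lost under several settings given below. The genes were chosen for their H3K4me3, but with earlier results of these data known, so the sites too are given as a description. Sites were windows of 200 bp with at least 10 reads, both strands among them, and a Poisson p below 1e-08 against the local density. At Tnfsf11 there was 1 site, chr14:78706700-78706999, centred at 151 bp, with 18 reads (10.7 to 28.4) where the local density predicts 2.14, an 8.41-fold excess. At Dusp5 there were 2 sites. The first, chr19:53603200-53603599, was centred at -201 bp and held 23 reads (14.6 to 34.5), 7.77-fold over the local density, and the second, chr19:53611200-53611549, was centred at 7774 bp and held 21 reads (13.0 to 32.1), 7.19-fold.

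None of the 3 sites was in the top 25% of the 27061 sites of the library, for which at least 26.1 reads above the local density were needed. Their excess was above that of 32.4% of all sites at Tnfsf11, and of 55.8% and 46.2% at Dusp5. A site within 10 kb was common, found at 74.6% of all marked regions and 61.3% of the 111 higher ones. A site overlapping the region, as at Tnfsf11, was found at 52.5% of marked regions and 24.3% of the higher ones, and the Dusp5 region overlapped none. The Tnfsf11 region held 65 phospho-STAT3 reads and the Dusp5 region 64, which per kb was above 12.9% and 13.4% of marked regions. Among the 111 higher regions it was above 43.2% and 47.7%. Over their own surroundings these reads stood 3.65-fold (2.81 to 4.65) at Tnfsf11 and 2.63-fold (2.03 to 3.36) at Dusp5.

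The site at the Tnfsf11 start overlapped a site called by the same rule in each H3K4me3 library. In its highest window there were 20 STAT3-deficient and 3 wild-type H3K4me3 reads beside the 18 phospho-STAT3 reads. The 3 are fewer than the 10 a site needs, so the wild-type H3K4me3 call came from another window. No input library was analysed here, so phospho-STAT3 and reads that any immunoprecipitate gathers there cannot be told apart. The Tnfsf11 site was not called when the local density was taken over 5 kb or at a Poisson p below 1e-12. The Dusp5 window had 2 sites with 5 kb and 1 at 1e-12. Neither Dusp5 site overlapped a site called in an H3K4me3 library. In the window of the Dusp5 promoter site there were 13 STAT3-deficient and 4 wild-type H3K4me3 reads, and at the downstream site 1 of each. Before the Dusp5 start, phospho-STAT3 held 18 reads in each of the 2 windows from -400 to 0 bp, while STAT3-deficient H3K4me3 held 15 reads in the first of them and 1 in the other.

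**Figure D5:**
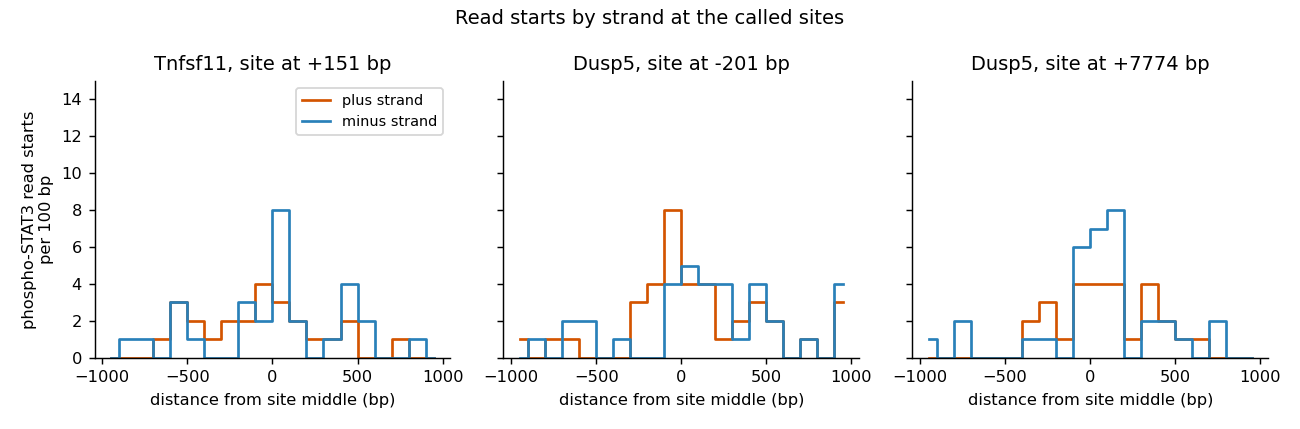
Starts of phospho-STAT3 reads per 100 bp on the plus and minus strand, by distance from the middle of each site in genome direction. The median minus-strand start lay 97.5, 134.5 and 32.5 bp to the right of the median plus-strand start at the Tnfsf11 site, the Dusp5 promoter site and the downstream Dusp5 site.

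These strand offsets rest on few reads, 14 on the plus and 15 on the minus strand within 300 bp at Tnfsf11. H3K4me3 within 1 kb of the sites differed between genotypes at both promoter sites and not detectably at the downstream Dusp5 site. The Tnfsf11 site had 224 STAT3-deficient and 41 wild-type reads around it, a log2 ratio of 2.15 (1.67 to 2.67), and at the Dusp5 promoter site 67 and 28, a log2 ratio of 0.96 (0.31 to 1.65). The downstream Dusp5 site had 38 and 28 reads, giving a log2 ratio of 0.14 (-0.60 to 0.90). The first of these overlaps the promoter region by which Tnfsf11 was chosen and is no separate evidence. The stretch around the Dusp5 promoter site reaches into the marked region of that gene. That part, from 600 to 800 bp, gave 27 of the 67 STAT3-deficient and 7 of the 28 wild-type reads. Phospho-STAT3 was measured in wild-type cells alone, and how its sites bear on the H3K4me3 difference was not tested.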

How the data were processed

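The deposited files hold aligned reads of 25 bases, 1 line per read with its position, strand, match code and a score that the authors left at 0 and that was not used. Per the submitters' processing notes the build was mm9 and SICER was used; the aligner is not given in the sources used here. Within a library, all reads differed in position or strand, so repeats had been removed before deposit. Libraries had 18 PCR cycles per the labels' protocols and carry no molecular identifiers.

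Reads were moved 75 bp towards the fragment centre and counted. Both H3K4me3 libraries together gave the H3K4me3 regions, from 200 bp windows of at least 12 reads joined over up to 600 bp, with at least 2 windows. Log2 ratios carry Clopper-Pearson intervals, counts exact Poisson intervals. Sites were held against the larger of the genome-wide density and the density over 10 kb. The rule for named features was both genes, every region and site in their windows, and the 3 most alike regions per gene. The members and lists were chosen with earlier results of these data known. Lists of RANKL and ERK pathway genes and of cell markers were not run, since no mm9 annotation was used. The size rule and the site caller were tried on simulated counts with counting error only and an even background. Variation between libraries was not simulated. Python 3.11.15, numpy 2.4.6, scipy 1.17.1, pandas 2.3.3 and matplotlib 3.10.9 were used. RefSeq promoters (GRCm38.p6) matched both genes.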

Additional observations from a re-analysis of the deposited data

How the results depend on the processing

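The direction at both promoters held under every alternative that gave a value. Each alternative recounts the 2 libraries by which the genes were chosen, so this is a description and no separate check. With background subtracted, the log2 ratio was 3.12 at Tnfsf11 and 3.28 at Dusp5. Counted over 5 kb on either side of the start site it was 1.77 and 1.75, and over 1 kb it was 1.11 at Dusp5, whose mark lies downstream. The remaining alternatives stayed within the main intervals, and calling on wild-type reads alone gave no region at either gene. The site at Tnfsf11 was lost (0 sites) at a Poisson p under 1e-12 and with the local density over 5 kb. It was also lost when sites that overlap one called in an H3K4me3 library were left out. Dusp5 had 4 sites at a Poisson p under 1e-05 and 1 at 1e-12. The 238 marked regions that passed the size rule in either direction became 373 by library totals, 571 with at least 20 reads and 571 with no minimum, and 94 with at least 100 reads. Scaling by totals shifts all log2 ratios by 0.32 and makes 319 higher and 54 lower out of 111 higher and 127 lower regions. Marked regions held 8.14% of STAT3-deficient and 6.48% of wild-type H3K4me3 reads, so by totals they stand higher as a whole in the STAT3-deficient library. With 1 library per group, no replicate could be left out. No paired analysis was possible because each group had 1 library and the result comes from no test.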
